A study of Rattus norvegicus with 24 samples.

Results

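The genes described here encode the nuclear-encoded subunits of the mitochondrial respiratory chain, complexes I to V, together with assembly factors that share their naming stems. Members were taken by name alone. A gene was included when a probe set carried a single platform symbol beginning with Ndufa, Ndufb, Ndufc, Ndufs, Ndufv, Sdh, Uqcr, Cox4, Cox5, Cox6, Cox7, Cox8 or Atp5. This gave 90 genes of the 14218 named on the array, read by 101 probe sets, and where a gene had several, the one of highest average signal was taken. By symbol, 34 belong to complex I, 4 to complex II, 7 to complex III, 17 to complex IV (with Ndufa4 and Ndufa4l2 counted there) and 15 to complex V, 10 are assembly factors (Ndufaf and Sdhaf symbols), and 3 stand apart, namely Cox7a2l, Atp5if1 and the pseudogene symbol Cox6c-ps1. A further 7 probe sets pair such a symbol with another gene and were not used.

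The study followed gene expression at the epicenter of a thoracic spinal cord injury in the rat. Female Wistar rats had the thoracic laminae removed, and injured rats then received a 35 g aneurysm clip on the cord for 1 min, whereas sham rats had the laminectomy without the clip. RNA from 5 mm of cord of a single rat went onto each Affymetrix rat genome array, and there were 4 arrays in each of 6 groups, namely sham and days 1, 3, 7, 14 and 56 after the clip. All groups share strain, sex and laminectomy. The methods describe 4 sham rats at every time point, whereas the 4 sham arrays analysed here carry no day, and these same 4 sham arrays serve every comparison with sham, so the 5 comparisons share their error.

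The respiratory chain sits in the inner mitochondrial membrane. Complex I (NADH dehydrogenase) and complex II (succinate dehydrogenase) pass electrons to ubiquinone, complex III passes them to cytochrome c, complex IV hands them to oxygen, and complex V (ATP synthase) uses the resulting proton gradient to make ATP. Most subunits are encoded in the nucleus, and a small set of core subunits is encoded by mitochondrial DNA. Neurons depend on this pathway for most of their ATP, and its transcripts are abundant in the central nervous system.

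All values are deposited log2 expression values, so a difference of 1 is a doubling, and all differences below are on this scale. The array's negative control probe sets averaged 2.62 to 2.91, which serves here as the background level. Of the 90 members, 67 had a mean of at least 10 over the 24 arrays and 10 had a mean under 5 (Cox4i2, Cox6a2, Cox6b2, Cox6c-ps1, Cox7a1, Cox7b2, Cox8b, Ndufa4l2, Ndufaf1 and Ndufb8). A gene was called changed when limma, fitted over all 24 arrays, gave a Benjamini-Hochberg adjusted p under 0.05 within that comparison. Because the members are mostly bright, their counts are read beside both all 14218 genes and the 2356 genes with a mean of at least 10.

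Transcripts of cell type markers moved with the groups. On sham arrays the median level of 16 neuronal markers was 11.40 to 11.92, of 11 oligodendrocyte markers 13.38 to 13.55 and of 10 astrocyte markers 14.03 to 14.31. The median change of the neuronal markers against sham was -3.07, -1.08, -2.72, -2.50 and -2.18 on days 1, 3, 7, 14 and 56, with 15, 4, 15, 15 and 13 of 16 lower. The oligodendrocyte markers had medians of -0.96, -0.87, -0.53, -0.30 and -0.83, with 10, 7, 4, 5 and 7 of 11 lower, and the astrocyte markers -1.81, -0.84, -0.80, -0.33 and -0.05, with 8, 5, 6, 2 and 2 of 10 lower. The 14 macrophage and microglia markers had medians of 2.94, 0.93, 2.60, 2.08 and 2.11, with 12, 8, 13, 13 and 11 higher. The 12 fibroblast and pericyte markers had medians of 1.46, -1.93, 1.07, 1.02 and 1.24, with 5, 0, 5, 5 and 4 higher and 1, 6, 3, 1 and 1 lower. The 7 neutrophil markers had a median of 5.06 on day 3 against 0.29 on day 1 and -0.05 on day 7, with 3, 4 and 1 of 7 higher on days 1, 3 and 7. Their sham arrays had medians of 2.07 to 2.15, below the control level, and 3 of 7 were under 5 in both sham and day 3, so 5.06 is not an exact size. The arrays labelled day 3 therefore had smaller neuronal and macrophage changes than those labelled day 1 and day 7, and higher neutrophil markers. Days are given here as labelled, whether the labels of these arrays hold was not tested, and the results on days 7, 14 and 56 against sham do not use the arrays of days 1 and 3 except for the shared estimate of spread. In bulk tissue, fewer cells of a type and less RNA per cell cannot be told apart, and the part of these shifts in the changes of the members was not tested.

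**Figure D1:**
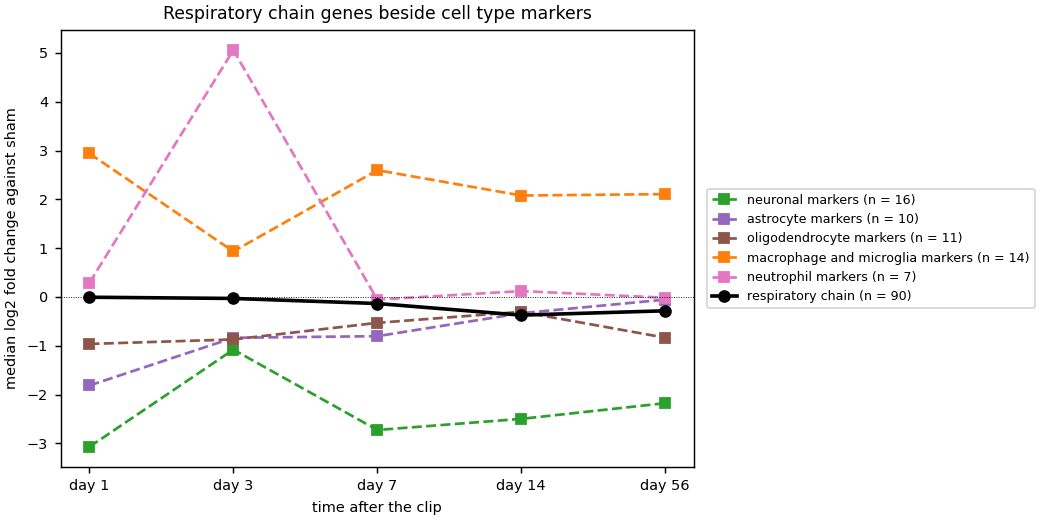
Median log2 fold change against sham (vertical axis) of the 90 respiratory chain genes (black) and of 5 lists of cell type markers (dashed), for each day after the clip (horizontal axis, evenly spaced). The respiratory chain median moved from -0.01 on day 1 to -0.37 on day 14, while neuronal markers stood at -3.07 on day 1 and -1.08 on day 3.

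The members went both ways on days 1 and 3, with medians near 0, and were lower on days 14 and 56. On day 1, 23 members were higher and 27 lower, which is 25.6% and 30% of the list, against 28.9% and 20.4% of all genes and 42.9% and 30.5% of genes with a mean of at least 10, and the median change was -0.01. On day 3, 11 were higher and 15 lower, against 23.7% and 16.7% of all genes and 38.3% and 22% of bright genes, with a median of -0.03. On day 7, 5 were higher and 36 lower, against 23.5% and 30% of all genes and 41% and 23.8% of bright genes, with a median of -0.13. On day 14, none was higher and 60 were lower, against 15.8% and 16.3% of all genes and 28.4% and 25.3% of bright genes, with a median of -0.37. On day 56, none was higher and 52 were lower, against 16.1% and 15.9% of all genes and 29.7% and 25% of bright genes, with a median of -0.28. These counts use 1 probe set per gene. A second probe set of Ndufv3 (mean 9.24) was 0.33 higher on day 56 (adjusted p = 0.0131), against -0.03 (adjusted p = 0.848) for the one used. The medians over bright genes were 0.14, 0.13, 0.14, 0.01 and 0.05 on the 5 days, so the shift of the members on days 14 and 56 was not shared by bright genes in general. The methods describe separate pre-processing of each time point, so an offset between runs cannot be told apart from time after the clip.

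At an unadjusted p of at most 0.05, an ordinary 2-group t-test with pooled variance gave 2 higher and 59 lower members on day 14. On day 56 it gave 1 higher and 57 lower. The counts of lower members on days 14 and 56 were 53 and 44 after quantile normalization and 62 and 49 after median centring, with none higher. The direction on day 3 depended on scaling, with 16 higher and 11 lower after median centring and 9 higher and 20 lower after quantile normalization. On day 7, median centring gave 8 higher and 21 lower. Without sham replicate 4, the members called higher on day 1 fell to 14, and those called higher on day 3 to 7. Without day 3 replicate 2, the day 3 count was 6.

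**Figure D2:**
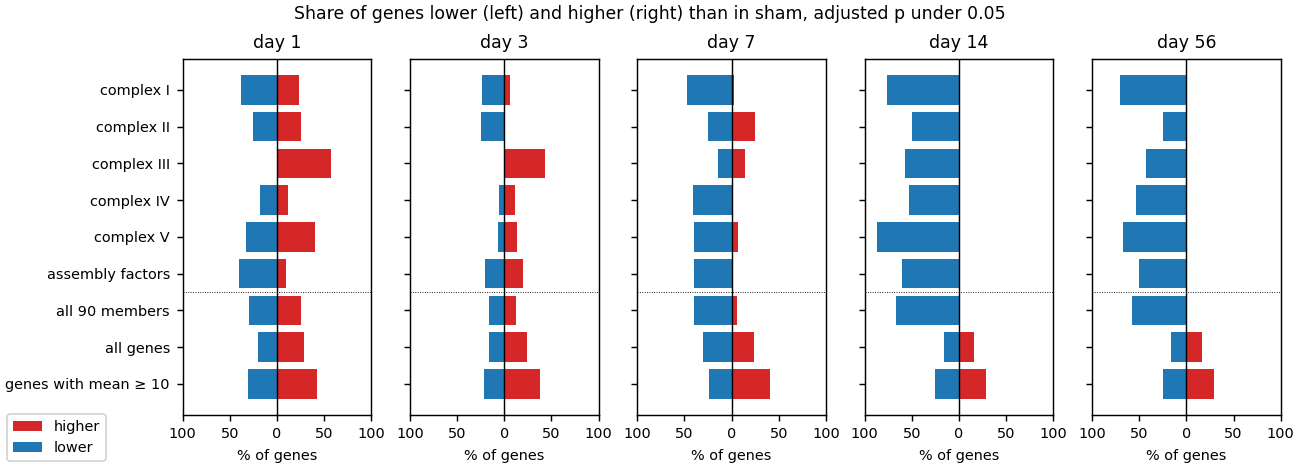
Percent of genes higher (right, red) and lower (left, blue) than sham with a limma adjusted p under 0.05, by complex, for all 90 members, for all 14218 genes and for the 2356 genes with a mean of at least 10, 1 panel per day. No bar of the members extends to the right on days 14 and 56, when all genes and bright genes have bars on both sides.

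The lower level was seen on each array of days 14 and 56. The median over members of the log2 value minus the sham mean was -0.10 to 0.06 on the 4 sham arrays, -0.11 to 0.11 on day 1 and -0.10 to 0.05 on day 3. On day 7 it was -0.17 to -0.08, on day 14 -0.38, -0.48, -0.49 and -0.22, and on day 56 -0.36, -0.25, -0.26 and -0.31. The arrays of days 14 and 56 all lay below every sham array, day 7 replicate 2 at -0.08 lay within the sham range, and day 14 replicate 4 was the highest of its group. Taken gene by gene, all 4 arrays of day 14 lay below all 4 sham arrays for 56 members and those of day 56 for 49 members, against 16.6% and 17.9% of all genes and 27.6% and 28.3% of bright genes.

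**Figure D3:**
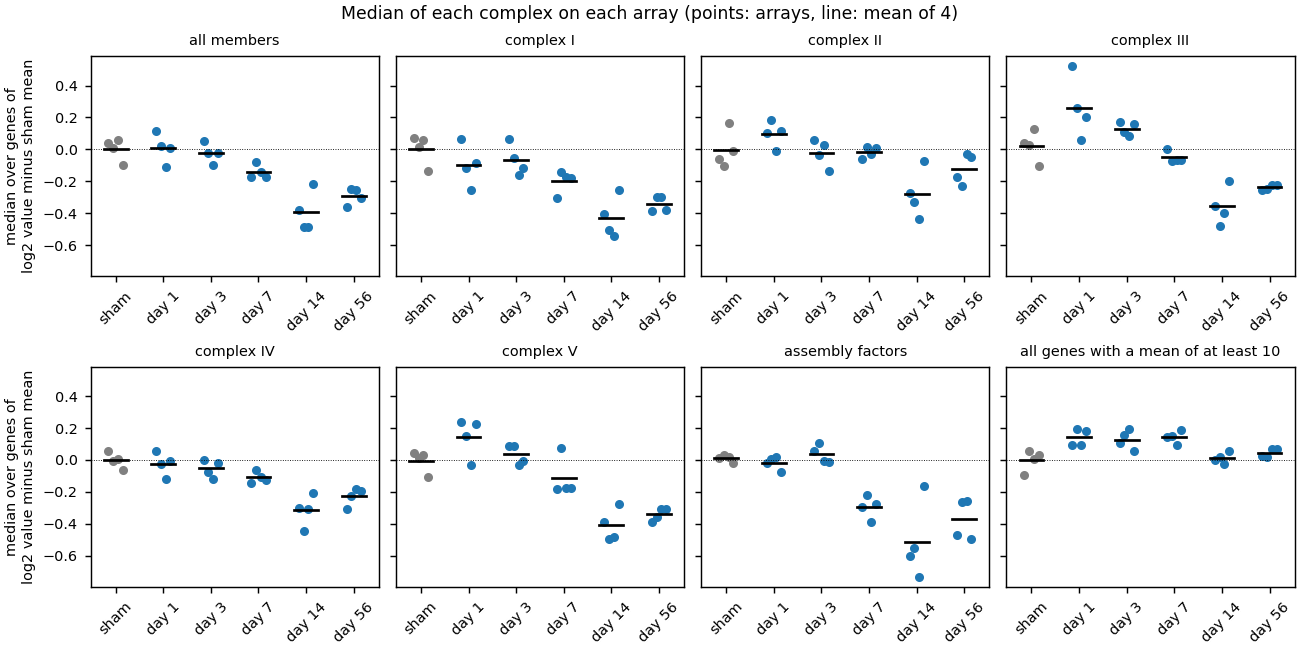
Median over the genes of each complex of the log2 value minus that gene's sham mean (vertical axis, log2 units), for each array (points) and as the mean of 4 arrays (line), by group; the last panel shows all genes with a mean of at least 10. Every complex lies below its sham arrays' mean on days 14 and 56, and complex III lies between 0.06 and 0.52 on day 1.

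Later groups were also compared with earlier injured groups. From day 1 to day 3, 13 members were higher and 15 lower, against 17.1% and 18.3% of all genes and 27.1% and 22.8% of bright genes, with a median of -0.02. After median centring these were 15 and 10, and without day 1 replicate 1 only 8 were lower. From day 3 to day 7, 4 were higher and 24 lower, against 12.8% and 17.1% of all genes and 21.7% and 23.8% of bright genes, with a median of -0.12, and without day 3 replicate 3, or without day 7 replicate 2, 2 were higher. From day 7 to day 56, none was higher and 10 were lower, against 1.99% and 4.78% of all genes and 2.38% and 10.4% of bright genes, with a median of -0.19. The last count rested on single arrays. It was 0 without day 7 replicate 2 or without day 56 replicate 1, 1 without day 7 replicate 4, 3 without day 56 replicate 2 or 4, 4 without day 7 replicate 1 and 6 without day 56 replicate 3. After quantile normalization it was 0 lower and 1 higher, and after median centring 32 lower, with the cause not tested.

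Several courses were seen within the list. All 27 members lower on day 1 were also lower on day 7, and 25 of them were lower on day 14 and 25 on day 56. The same carry-over was not counted over all genes. Every day is compared with the same 4 sham arrays, so agreement between days is partly built in. The 23 members higher on day 1 were never called lower on day 7, and 7 of them were lower on day 14 and 4 on day 56. The 7 members higher on day 1 and lower on day 14 or 56 compare with 0.64% of all genes with that course. The 50 members lower on both days 14 and 56 compare with 13.3% of all genes with that course, and 26 of the 50 were not lower on day 1. The 9 members lower on every day were Atp5pf, Cox6c, Ndufa6, Ndufa8, Ndufb10, Ndufb4, Ndufs1, Sdha and Sdhaf3, which is 10% of the list, against 6.15% of all genes. The call for Cox6c on day 3 was lost without sham replicate 3 (-0.18, adjusted p = 0.0779) and without day 3 replicate 3 (-0.19, adjusted p = 0.0697). The 4 genes higher on day 1 and lower on both late days were Atp5f1d, Atp5mpl, Ndufs4 and Uqcrc1, against 0.218% of all genes. Ndufa2, Ndufa4l2, Ndufaf1 and Sdhd were called on no day. The median sham level was 11.45 in the members higher on day 1 and 12.28 in those lower on day 1.

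**Figure D4:**
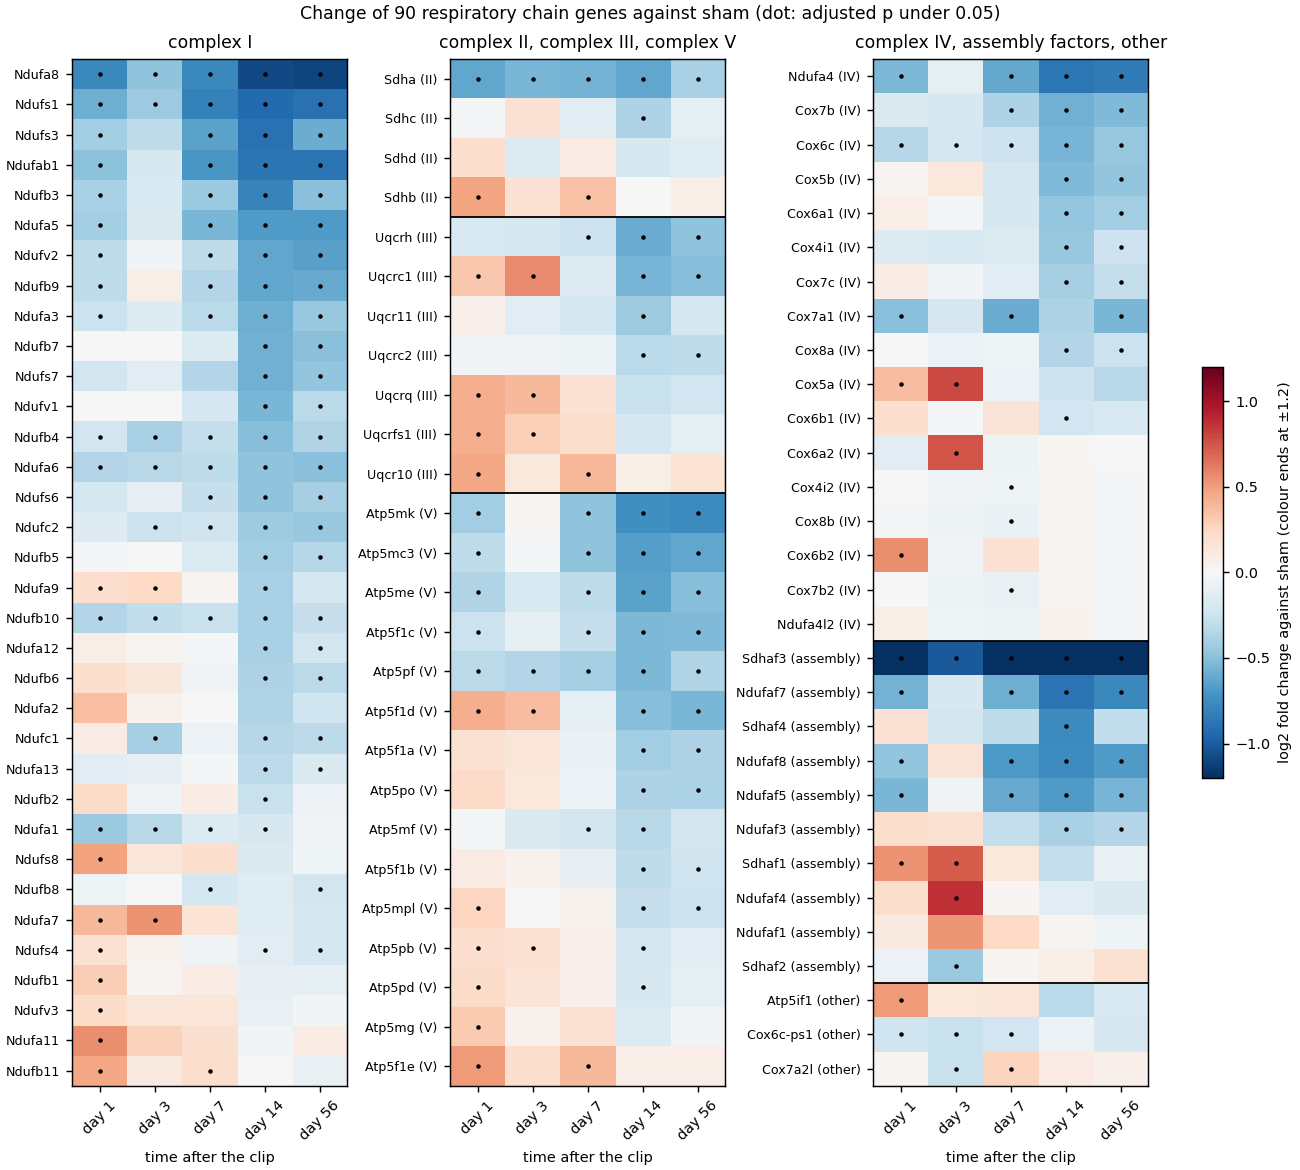
Log2 fold change against sham of each of the 90 genes (rows, ordered by day 14 within each complex) on each day (columns); blue is lower, red higher, the colour ends at ±1.2, and a dot marks a limma adjusted p under 0.05. Red cells with a dot lie on days 1, 3 and 7, and each dot on days 14 and 56 lies in a blue cell.

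Many of these genes share short sequences just before their start. RefSeq (GRCr8) gives a promoter window, 250 bases before to 50 bases after the gene start, for 82 of the 90 members and for 27457 genes in all. These were searched on both strands for the letters of the NRF1 motif (CGCANGCGC), the ETS motif bound by GABP (CCGGAAG), the YY1 motif (AAGATGGC) and the cyclic AMP response element (TGACGTCA). None of these letter strings contains another. The NRF1 letters were found in 22 of 82 members (26.8%) and in 6.27% of all promoters, the ETS letters in 25 (30.5%) and 9.21%, the YY1 letters in 17 (20.7%) and 3.41%, and the cyclic AMP letters in 3 (3.66%) and 1.89%. One or more of the first 3 motifs stood in 51 members (62.2%) and in 16.7% of all promoters. The set of all promoters was not limited to genes named on the array or matched to the members for expression. By course on day 1, 13 of 22 members higher on day 1, 16 of 23 lower and 22 of 37 not called held a motif. By complex the counts were 19 of 32 for complex I, 4 of 4 for II, 5 of 6 for III, 4 of 14 for IV, 11 of 14 for V and 8 of 10 assembly factors. A match describes letters in a window and is not a measured binding site. The 120 bases before the gene start of 6 members are given because 3 of them (Sdha, Sdhaf3, Atp5pf) were lower on all 5 days, while 3 (Sdhb, Ndufa11, Uqcrc1) were higher on day 1, and the NRF1 and ETS letters occur in both sets. Capitals mark matches to the NRF1, ETS or YY1 letters on either strand that lie whole within the stretch.
Sdha (chr1:30764433-30764552, plus strand): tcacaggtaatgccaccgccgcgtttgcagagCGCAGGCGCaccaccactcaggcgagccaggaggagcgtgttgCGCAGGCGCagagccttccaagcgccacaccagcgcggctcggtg
Sdhaf3 (chr4:36066843-36066962, plus strand): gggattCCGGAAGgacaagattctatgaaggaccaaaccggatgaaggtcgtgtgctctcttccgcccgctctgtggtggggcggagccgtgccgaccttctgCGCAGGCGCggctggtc
Atp5pf (chr11:37375102-37375221, minus strand): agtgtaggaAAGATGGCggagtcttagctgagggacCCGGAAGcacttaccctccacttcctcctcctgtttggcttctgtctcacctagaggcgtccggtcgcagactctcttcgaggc
Sdhb (chr5:158547814-158547933, plus strand): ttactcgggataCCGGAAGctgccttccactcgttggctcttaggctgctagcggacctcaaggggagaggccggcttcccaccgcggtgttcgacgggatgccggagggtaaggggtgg
Ndufa11 (chr9:1637494-1637613, plus strand): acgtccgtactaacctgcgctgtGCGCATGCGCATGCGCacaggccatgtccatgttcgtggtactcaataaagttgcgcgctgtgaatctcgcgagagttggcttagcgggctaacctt
Uqcrc1 (chr8:118468103-118468222, plus strand): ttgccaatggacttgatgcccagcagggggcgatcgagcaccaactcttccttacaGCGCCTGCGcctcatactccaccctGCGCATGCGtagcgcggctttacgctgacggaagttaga
The Sdha and Ndufa11 stretches each hold more than 1 match to the NRF1 letters, overlapping ones in Ndufa11. Sdha was lower and Ndufa11 higher on day 1. The Uqcrc1 stretch holds the NRF1 letters on the opposite strand at both marked places.

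Complex I is the largest group. On day 14 the share of its genes called lower was 76.5%, under the 86.7% of complex V, and on day 56 it was 70.6%, near the 66.7% of complex V. Of its 34 genes, 8 were higher and 13 lower on day 1, 2 and 8 on day 3, 1 and 16 on day 7, and none higher and 26 and 24 lower on days 14 and 56, with medians of -0.40 and -0.32 on the last of these. The lower counts of days 7 and 56 include Ndufb8 (-0.21 and -0.22), whose sham mean of 3.19 was close to the control level. On day 1 these are 23.5% and 38.2%, against 42.9% and 30.5% of bright genes. On days 14 and 56, 25.3% and 25% of bright genes were lower. The 6 measured core subunits, which belong to the conserved catalytic core, had 5 lower on day 14 (median -0.60) and 5 lower on day 56 (median -0.53).

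Ndufs1, the largest core subunit and a carrier of iron-sulfur clusters, was measured at 11.53, 11.62, 11.80 and 11.55 in sham, 10.78, 11.05, 11.25 and 11.09 on day 1, and 11.24, 11.34, 11.12 and 11.05 on day 3. On day 7 it was 10.75, 10.64, 11.11 and 10.77, on day 14 10.65, 10.59, 10.49 and 11.05, and on day 56 10.58, 10.61, 10.90 and 10.81. Every injured array lay below every sham array. The changes were -0.58 ± 0.12 (SE), -0.43 ± 0.12, -0.81 ± 0.12, -0.93 ± 0.12 and -0.90 ± 0.12 on the 5 days, with adjusted p of 0.000604, 0.00941, 4.3e-05, 1.53e-05 and 2.09e-05.

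Ndufa8, an accessory subunit facing the intermembrane space, had the largest fall among complex I genes on days 14 and 56. Its values were 13.07, 12.86, 12.97 and 12.65 in sham, 12.28, 12.19, 11.96 and 12.01 on day 1, and 12.39, 12.32, 12.33 and 12.56 on day 3. They were 11.97, 12.09, 12.25 and 12.14 on day 7, 11.99, 11.73, 11.43 and 12.05 on day 14, and 11.64, 11.90, 11.92 and 11.68 on day 56. No injured array reached the sham range, and the day 3 arrays were the highest of the injured ones. The change was -0.78 ± 0.12 (SE) on day 1 (adjusted p = 2e-05), -0.49 ± 0.12 on day 3 (adjusted p = 0.00314) and -1.10 ± 0.12 on day 56 (adjusted p = 1.66e-06). Ndufab1, the mitochondrial acyl carrier protein, had changes of -0.49, -0.19, -0.70, -0.88 and -0.87, and all but the day 3 value passed the test. Its change from day 3 to day 7 was -0.51 (adjusted p = 0.00365).

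Other complex I subunits were higher early. Ndufa11, an accessory subunit of the membrane arm, was 11.57, 11.62, 11.33 and 11.25 in sham and 12.39, 11.88, 11.71 and 12.04 on day 1. All day 1 arrays lay above all sham arrays, with a change of 0.56 ± 0.13 (SE, adjusted p = 0.000985), and on day 56 the value was 0.09 (adjusted p = 0.691). Ndufb11, another membrane arm subunit, was 0.47 ± 0.09 higher on day 1 (adjusted p = 0.000132) and was lower on day 3 than on day 1 (-0.36, adjusted p = 0.00307). Ndufs8, a core subunit, was 0.48 higher on day 1, a call lost without sham replicate 4 (0.39, adjusted p = 0.0644) and without day 1 replicate 1 (0.35, adjusted p = 0.074). Ndufa7 and Ndufa9 were also higher on days 1 and 3, but a dimmer probe set of each ran the other way: that of Ndufa7 had -1.96 on day 1 (adjusted p = 3.43e-05) and that of Ndufa9 -0.43 (adjusted p = 0.0198), so the direction of these genes is uncertain. The Ndufa9 calls were also lost without any 1 of several arrays, for example without day 1 replicate 1 (0.16, adjusted p = 0.165) and without day 3 replicate 2 (0.22, adjusted p = 0.0737).

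The 4 subunits of complex II, the only complex encoded wholly in the nucleus, did not move together. Sdha, the flavoprotein that oxidises succinate, was 11.81, 11.78, 12.05 and 11.86 in sham, 11.10, 11.34, 11.17 and 11.40 on day 1, 11.46, 11.40, 11.24 and 11.19 on day 3, and 11.16, 11.15, 11.53 and 11.40 on day 7. It was 11.31, 11.22, 11.16 and 11.29 on day 14 and 11.37, 11.54, 11.54 and 11.51 on day 56. All injured arrays lay below all sham arrays. The changes were -0.62 (adjusted p = 7.76e-06), -0.55, -0.56, -0.63 and -0.39 (adjusted p = 0.00213), each with an SE of 0.09.

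Sdhb, the iron-sulfur subunit that takes electrons from Sdha, was higher early instead. Its values were 11.75, 11.92, 11.99 and 11.85 in sham, 12.40, 12.33, 12.20 and 12.46 on day 1, 12.06, 12.19, 12.01 and 11.93 on day 3, and 12.25, 12.39, 12.01 and 12.24 on day 7. On day 14 it was 11.96, 11.75, 11.79 and 11.98, and on day 56 11.86, 11.98, 12.01 and 11.95. The day 1 and day 7 arrays all lay above sham, and the day 14 and day 56 arrays overlapped it. The change was 0.47 ± 0.08 (SE) on day 1 (adjusted p = 5.24e-05), 0.35 ± 0.08 on day 7 (adjusted p = 0.00177), -0.01 on day 14 (adjusted p = 0.967) and 0.07 on day 56 (adjusted p = 0.585). Of the membrane anchors, Sdhc was lower on day 14 alone (-0.37, adjusted p = 0.00318), and Sdhd was called on no day (0.20 on day 1, adjusted p = 0.104). A second, dimmer probe set of Sdhd was 0.68 higher on day 1 (adjusted p = 1.01e-05) and 0.29 higher on day 7 (adjusted p = 0.0234), so the probe sets of this gene disagree on its early course.

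Complex III had no gene lower on days 1 and 3, when 20.4% and 16.7% of all genes were lower. Of its 7 genes, 4 were higher on day 1 and 3 on day 3, and the median change was 0.32 and 0.13. These are 57.1% and 42.9%, against 42.9% and 38.3% of bright genes, so with 7 genes the counts are near that background. On day 14, 4 were lower (57.1%, median -0.32), and on day 56, 3 (42.9%, median -0.23), against 25.3% and 25% of bright genes. Uqcrq, a small accessory subunit, was 11.42, 11.30, 11.40 and 10.96 in sham, 11.85, 11.82, 11.50 and 11.66 on day 1, and 11.75, 11.60, 11.51 and 11.78 on day 3. Neither group overlapped sham, and the changes were 0.44 ± 0.11 (SE, adjusted p = 0.00183) and 0.39 ± 0.11 (adjusted p = 0.00653). Uqcr10, another small subunit, was higher on day 1 (0.46, adjusted p = 0.00286) and day 7 (0.40, adjusted p = 0.0114), and Uqcrfs1, the Rieske iron-sulfur protein, was 0.43 and 0.28 higher on days 1 and 3.

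Uqcrc1, a core protein on the matrix side of complex III, was both above and below sham in the course. It was 12.16, 12.23, 12.28 and 12.11 in sham, 12.94, 12.46, 12.25 and 12.40 on day 1, and 12.78, 12.86, 12.73 and 12.69 on day 3. On day 7 it was 11.90, 12.12, 12.13 and 11.996, on day 14 11.68, 11.64, 11.41 and 11.82, and on day 56 11.53, 11.66, 11.81 and 11.75. All day 3 arrays were above and all day 14 and day 56 arrays below the sham range, while day 1 replicate 3 lay within it. The change was 0.57 ± 0.11 (SE) on day 3 (adjusted p = 0.000419), -0.73 from day 3 to day 7 (adjusted p = 5.75e-05), -0.56 on day 14 (adjusted p = 0.000711) and -0.51 on day 56 (adjusted p = 0.00162). The day 1 value of 0.32 (adjusted p = 0.0242) was no longer called without day 1 replicate 1 (0.18, adjusted p = 0.117), sham replicate 1 (0.31, adjusted p = 0.0521) or sham replicate 4 (0.29, adjusted p = 0.0664). Uqcrh, the hinge protein that binds cytochrome c1, was lower on days 7 (-0.24), 14 (-0.59, adjusted p = 8.54e-06) and 56 (-0.48, adjusted p = 6.94e-05).

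Complex IV had 2 genes higher and 3 lower on day 1, 2 and 1 on day 3, none and 7 on day 7, and none and 9 on days 14 and 56. On day 1 these are 11.8% and 17.6% of its 17 genes, both under the shares of all genes (28.9% and 20.4%), and on day 14 the 52.9% lower compare with 16.3% of all genes and 25.3% of bright genes. These shares count Cox4i2, Cox6a2, Cox6b2, Cox7a1, Cox7b2, Cox8b and Ndufa4l2, which had means under 5 and were not called lower on day 14. Every complex IV gene with a mean of at least 10 was lower on day 14, so 52.9% understates the measurable genes. Of the 7 lower on day 7, Cox4i2, Cox7b2 and Cox8b were at or below the control level, and the 2 higher on day 1 were Cox6b2, below the control level in sham, and Cox5a, whose call was lost without single arrays. Ndufa4, named for complex I but known as a subunit of complex IV, was 12.73, 12.68, 12.85 and 12.47 in sham, 12.25, 12.28, 12.03 and 12.03 on day 1 and 12.77, 12.74, 12.45 and 12.34 on day 3. It was 12.02, 11.94, 12.23 and 12.08 on day 7, 11.85, 11.86, 11.49 and 12.07 on day 14, and 11.79, 11.93, 11.84 and 11.83 on day 56. The day 3 arrays overlapped sham, and those of the other days all lay below it. The change was -0.54 ± 0.12 (SE) on day 1 (adjusted p = 0.000627), -0.11 on day 3 (adjusted p = 0.438), -0.62 on day 7 (adjusted p = 0.00029), -0.87 on day 14 (adjusted p = 1.33e-05) and -0.84 on day 56 (adjusted p = 1.92e-05). It was higher on day 3 than on day 1 (0.43, adjusted p = 0.0074) and lower on day 7 than on day 3 (-0.51, adjusted p = 0.00235).

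Cox5a, a nuclear-encoded subunit on the matrix side of the enzyme, was 8.93, 8.72, 8.58 and 8.51 in sham, 9.42, 8.97, 9.10 and 8.73 on day 1, 9.42, 9.49, 9.33 and 9.66 on day 3 and 8.67, 8.65, 8.58 and 8.56 on day 7. Only the day 3 arrays lay wholly above sham among these groups, with a change of 0.79 ± 0.15 (SE, adjusted p = 0.000271) and a fall of -0.86 by day 7 (adjusted p = 0.000186). The day 1 value of 0.37 was at the threshold (adjusted p = 0.0488) and was lost without any of several arrays taken 1 at a time, down to 0.24 without day 1 replicate 1 (adjusted p = 0.206). Cox6c and Cox7b, small subunits among the brightest members (sham means 13.93 and 13.80), had -0.56 and -0.58 on day 14 and -0.46 and -0.53 on day 56, and all 4 changes passed the test. Cox4i1, the ubiquitous form of subunit 4, and Cox6a1 were -0.46 each on day 14 (adjusted p = 0.000376 and 0.00149), and -0.25 and -0.40 on day 56 (adjusted p = 0.0343 and 0.00437). Cox8a was -0.35 on day 14 (adjusted p = 0.00354) and -0.25 on day 56 (adjusted p = 0.0289), and Cox6b1 was -0.23 on day 14 (adjusted p = 0.0432). The calls of Cox4i1 and Cox8a on day 56 and of Cox6b1 on day 14 were each lost without any 1 of several arrays, with values down to -0.20, -0.18 and -0.15 (adjusted p = 0.128, 0.126 and 0.172) without sham replicate 3, day 56 replicate 1 and sham replicate 1.

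Isoforms known from other tissues gave weak signals in the cord. Cox6a2 and Cox7a1, the heart and skeletal muscle isoforms, had sham means of 4.54 and 4.25, and Cox4i2, Cox6b2, Cox7b2, Cox8b and Ndufa4l2 had sham means of 1.95 to 2.59, at or below the control level. Cox6a2 was 4.68, 4.48, 4.58 and 4.41 in sham and 5.97, 5.40, 4.59 and 5.20 on day 3, so the groups overlapped through day 3 replicate 3. Its change of 0.75 (adjusted p = 0.0219) was lost without day 3 replicate 1 (0.53, adjusted p = 0.071) and without replicate 2 (0.71, adjusted p = 0.0544). Skeletal muscle markers, 13 of 16 of which were under 5 in both groups, had a median change of -0.07 on day 3, with none called. On days 1, 7, 14 and 56 their medians were -0.004, 0.002, 0.15 and -0.05, with 3, 4, 3 and 3 lower and 0, 1, 0 and 0 higher. Cox7a1 was lower on days 1 (-0.51), 7 (-0.60) and 56 (-0.55), and the calls on days 1 and 56 were lost without sham replicate 1 (adjusted p = 0.0543 and 0.0514). Cox6b2, a testis isoform, was called higher on day 1 (0.56, adjusted p = 0.00511) from a sham mean of 2.16, below the control level, so the size of that change is not exact. Cox4i2, Cox7b2 and Cox8b were called lower on day 7 by at most -0.09, with levels at or below the controls, and quantile normalization and median centring removed these calls. The pseudogene symbol Cox6c-ps1 (sham mean 3.59) was called lower on days 1, 3 and 7 (-0.24, -0.27 and -0.23), and each call was lost without any 1 of several arrays, for example without sham replicate 3 (adjusted p = 0.116, 0.0798 and 0.119). Its probe set and that of Cox6c may not separate the transcripts, so it is given as uncertain.

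Complex V had 6 genes higher and 5 lower on day 1, 2 and 1 on day 3, 1 and 6 on day 7, and none higher and 13 and 10 lower on days 14 and 56. On day 1 the 40% higher and 33.3% lower were close to the shares of bright genes (42.9% and 30.5%), whereas on days 14 and 56 the 86.7% and 66.7% lower compare with 25.3% and 25% of bright genes. The medians on the late days were -0.37 and -0.36. By part of the enzyme, 4 of 5 genes of the F1 head were lower on day 14 (median -0.42), as were 4 of 4 of the peripheral stalk (median -0.29) and 5 of 6 of the membrane part (median -0.49). Atp5mk, a small membrane subunit, was 13.49, 13.38, 13.33 and 13.16 in sham, 13.16, 12.96, 12.74 and 12.85 on day 1, 13.30, 13.51, 13.22 and 13.37 on day 3 and 12.78, 12.85, 13.01 and 12.79 on day 7. It was 12.73, 12.52, 12.41 and 12.73 on day 14 and 12.54, 12.75, 12.58 and 12.46 on day 56. The day 3 arrays overlapped sham, and the arrays of days 7, 14 and 56 lay below it. Its change was -0.41 ± 0.10 (SE) on day 1 (adjusted p = 0.00144), 0.01 on day 3 (adjusted p = 0.939), -0.74 on day 14 (adjusted p = 1.25e-05) and -0.76 on day 56 (adjusted p = 9.48e-06). Atp5mc3, which encodes the c subunit of the membrane ring and had a sham mean of 14.07, had changes of -0.31, -0.01, -0.48, -0.66 and -0.62 on the 5 days and only the day 3 value not called.

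Atp5pf, coupling factor 6 of the stalk, was lower on every day, with -0.32, -0.35, -0.40, -0.54 and -0.36. Its day 3 arrays of 12.54, 12.59, 12.51 and 12.51 lay below the sham arrays of 12.98, 12.89, 12.92 and 12.76 (adjusted p = 0.000345). Atp5me, the e subunit of the membrane part, was lower on days 1 (-0.37), 14 (-0.65) and 56 (-0.51), and its day 7 call (-0.31) was lost without any 1 of several arrays, down to -0.25 without sham replicate 2 (adjusted p = 0.0927). Atp5pb, the b subunit of the stalk, had values near the threshold on days 1, 3 and 14 (0.20, 0.18 and -0.21, adjusted p = 0.0262, 0.0498 and 0.0306), none of which held without each array in turn, for example without day 1 replicate 4 (adjusted p = 0.112), day 3 replicate 3 (adjusted p = 0.11) and day 14 replicate 2 (adjusted p = 0.0982). Atp5f1e, the epsilon subunit of the F1 head, was 12.51, 12.29, 12.26 and 11.99 in sham and 12.95, 12.84, 12.58 and 12.73 on day 1. All day 1 arrays were above sham, with a change of 0.51 ± 0.11 (SE, adjusted p = 0.000665). On day 7 it was 0.39 higher (adjusted p = 0.00785), and on days 14 and 56 the value was 0.08 each (adjusted p = 0.612 and 0.666). Atp5f1d, the delta subunit, was 0.43 higher on day 1 (adjusted p = 0.0125) and 0.37 on day 3 (adjusted p = 0.0393), and lower on day 14 (-0.52, adjusted p = 0.00646) and day 56 (-0.55, adjusted p = 0.00404). Its early calls were lost without sham replicate 4 (0.34 and 0.28, adjusted p = 0.0567 and 0.103), that of day 1 also without day 1 replicate 1 (0.30, adjusted p = 0.0646), and that of day 3 also without sham replicate 1 or day 3 replicate 1, 2 or 3 (adjusted p = 0.0621 to 0.098). Atp5if1, the inhibitor of ATP hydrolysis by complex V, was 12.02, 11.77, 11.74 and 11.77 in sham and 12.44, 12.31, 12.16 and 12.44 on day 1, all above sham (0.51 ± 0.12, SE, adjusted p = 0.00148). Averaging it with its other probe sets, near background, gave 0.17, which did not pass.

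**Figure D5:**
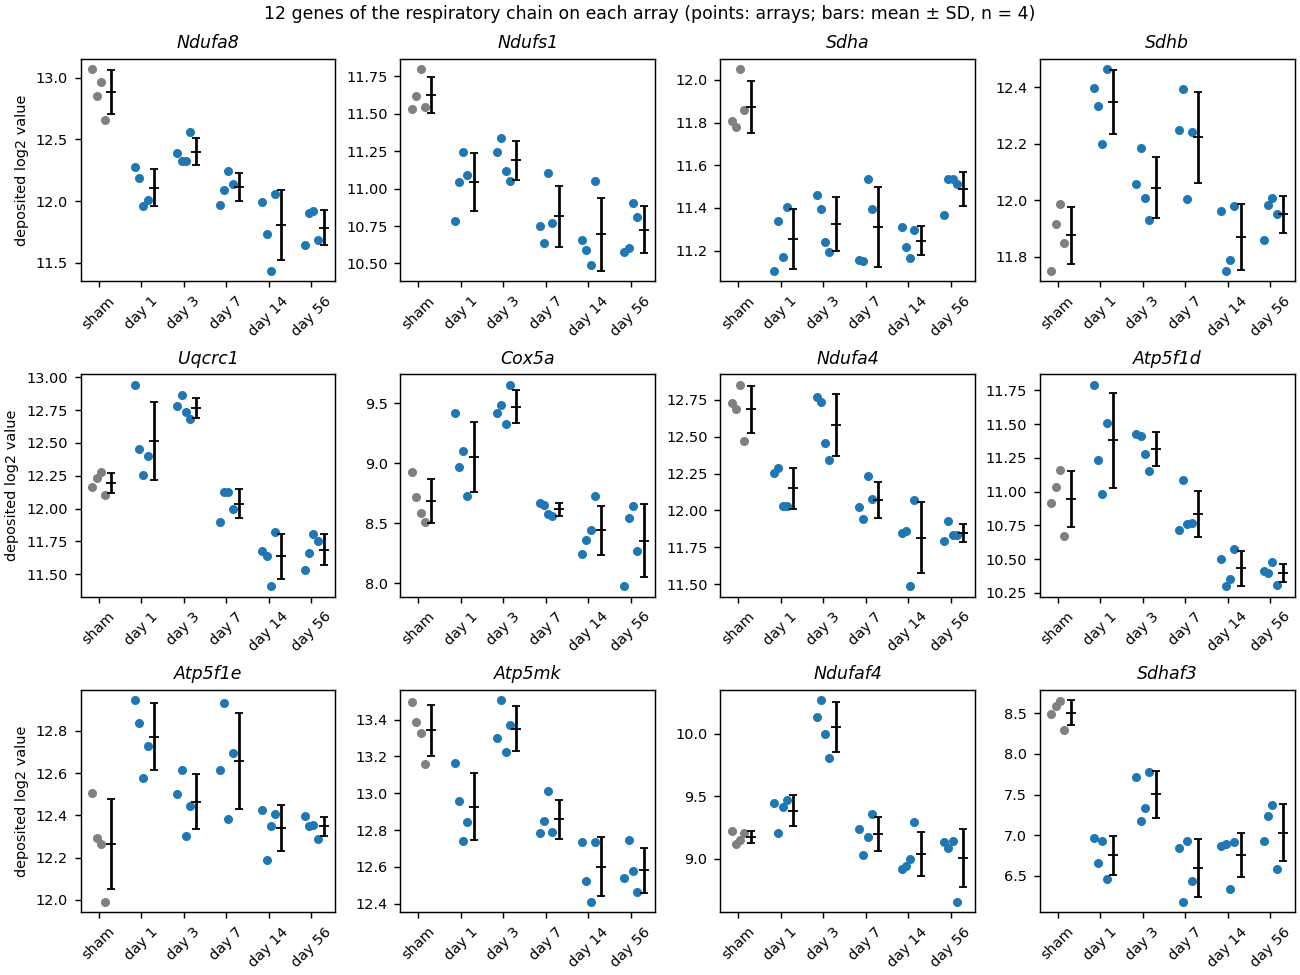
Deposited log2 values (vertical axis, own range in each panel) of 12 respiratory chain genes on each of the 24 arrays (grey sham, blue injured), by group, with the mean ± SD of 4 arrays. Sdha and Ndufs1 lie below sham on every day, Sdhb lies above sham on days 1 and 7, and Ndufaf4 and Cox5a have their highest values on day 3.

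The assembly factor Sdhaf3 had the largest change of any member on each day. Of the 10 assembly factors, 1 was higher and 4 lower on day 1, 2 and 2 on day 3, none and 4 on day 7, and none and 6 and 5 on days 14 and 56, with late medians of -0.53 and -0.32. Of all genes, 28.9% were higher and 20.4% lower on day 1, 23.7% and 16.7% on day 3, and 23.5% and 30% on day 7. On days 14 and 56, 16.3% and 15.9% of all genes were lower. Sdhaf3, which helps to mature the iron-sulfur subunit Sdhb, was 8.50, 8.60, 8.65 and 8.30 in sham, 6.97, 6.66, 6.93 and 6.46 on day 1, 7.72, 7.18, 7.33 and 7.78 on day 3, and 6.84, 6.18, 6.93 and 6.44 on day 7. It was 6.87, 6.89, 6.34 and 6.92 on day 14 and 6.92, 7.24, 7.37 and 6.59 on day 56. The injured arrays lay far below sham on every day, with those of day 3 nearest to it. The changes were -1.75 ± 0.20 (SE), -1.01 ± 0.20, -1.91 ± 0.20, -1.75 ± 0.20 and -1.48 ± 0.20, with adjusted p of 4.97e-07, 0.000405, 5.29e-07, 2.3e-06 and 1.29e-05. Day 3 was higher than day 1 (0.75, adjusted p = 0.00621) and day 7 lower than day 3 (-0.91, adjusted p = 0.00163).

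Ndufaf4, a complex I assembly factor, was 9.22, 9.11, 9.15 and 9.21 in sham, 9.45, 9.20, 9.41 and 9.47 on day 1 and 9.24, 9.02, 9.18 and 9.36 on day 7, against 9.81 to 10.27 on day 3. The day 3 arrays alone stood clear of every other group. The change was 0.88 ± 0.11 (SE) on day 3 (adjusted p = 4.82e-06), 0.67 from day 1 to day 3 (adjusted p = 0.000177) and -0.85 from day 3 to day 7 (adjusted p = 1.22e-05). Sdhaf1, which like Sdhaf3 serves Sdhb, was 8.76, 8.87, 8.86 and 8.79 in sham, 9.83, 9.20, 8.89 and 9.53 on day 1 and 9.36, 9.82, 9.63 and 9.40 on day 3, above sham in both, with changes of 0.54 (adjusted p = 0.00946) and 0.73 (adjusted p = 0.00139). Sdhaf2, which attaches flavin to Sdha, was lower on day 3 alone (-0.45, adjusted p = 0.00179). Ndufaf8, the partner of the hydroxylase Ndufaf5, was -0.47, 0.15, -0.69, -0.75 and -0.68 on the 5 days, with day 3 above day 1 by 0.62 (adjusted p = 0.000445) and day 7 below day 3 by -0.85 (adjusted p = 1.9e-05). Ndufaf7, a methyltransferase for complex I, was lower on days 1, 7, 14 and 56 (-0.56, -0.58, -0.88 and -0.77). A second, dimmer probe set of Ndufaf7 (mean 3.47) was lower on all 5 days, from -1.55 to -1.78. On day 3 it had -1.55 (adjusted p = 6.4e-08), against -0.20 (adjusted p = 0.182) for the one used, so size and day 3 course are uncertain. Cox7a2l, which helps to join complexes III and IV into supercomplexes, was 11.79, 11.88, 12.01 and 11.76 in sham, 11.53, 11.75, 11.48 and 11.62 on day 3 and 12.15, 12.22, 12.04 and 12.12 on day 7. It was below sham on day 3 (-0.26, adjusted p = 0.00732) and above it on day 7 (0.27, adjusted p = 0.00604), and the difference of 0.54 between the days passed the test (adjusted p = 1.61e-05). Its day 3 call was lost after median centring (-0.19).

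Neighbouring mitochondrial genes were followed in lists of their own. The probe sets for the mitochondrially encoded complex IV subunits COX1 and COX2 had sham means of 15.3 and 15.7. COX2 was lower on every day (-0.34, -0.20, -0.24, -0.25 and -0.21), and COX1 on days 1, 3 and 14. Cyc1, cytochrome c1 of complex III, was -0.26, -0.51 and -0.47 on days 7, 14 and 56, all called. Of 34 further assembly factors outside the naming rule, 10 were higher and 5 lower on day 1, 1 and 11 on day 14 and none and 11 on day 56, against 28.9% and 20.4% of all genes on day 1 and 16.3% and 15.9% lower on the late days, so the day 1 counts were near or under the background. Atpaf1, needed to build the F1 head, was lower on every day (-1.32 on day 1 and -1.30 on day 56), and Coa4, a complex IV factor, was higher on days 1, 3 and 7 (1.78, 1.39 and 1.17). Cox11, which helps to insert copper into complex IV, was lower on every day (-1.85, -1.06, -1.60, -1.79 and -1.85) from a sham mean of 4.42. Ttc19, a complex III factor, was lower on days 1, 7, 14 and 56 (-1.64, -1.12, -1.60 and -1.39). Cox11 on days 1, 7, 14 and 56 (group means 2.57, 2.82, 2.63 and 2.57) and Ttc19 on days 1 and 14 (2.87 and 2.90) were at or below the control level, so the sizes of these changes are not exact. Of 11 enzymes of the tricarboxylic acid cycle, which supplies the chain with NADH and succinate, 1 was higher and 6 lower on day 1, 1 and 2 on day 3, and none and 8 on each of days 7, 14 and 56, with medians of -0.35, -0.12, -0.38, -0.58 and -0.41. Of all genes, 20.4%, 16.7%, 30%, 16.3% and 15.9% were lower on the 5 days. Of bright genes, 30.5%, 22%, 23.8%, 25.3% and 25% were lower. Idh3a, a subunit of isocitrate dehydrogenase, was -1.07, -0.27, -1.13, -1.39 and -1.26 on the 5 days, with the day 3 value not called, and Sucla2, a subunit of succinyl-CoA ligase, was -0.82, -0.12, -0.89, -1.05 and -1.01, likewise. Dlst, a subunit of alpha-ketoglutarate dehydrogenase, was higher on days 1 and 3 (0.93 and 0.81).

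Of 22 carriers and channels of the mitochondrial membranes, 9 were higher and 6 lower on day 1, 10 and 1 on day 3, 4 and 10 on day 7, 1 and 10 on day 14, and none and 11 on day 56. The shares over bright genes were 42.9% and 30.5% on day 1, near those of the list, and 25.3% and 25% lower on days 14 and 56. Slc25a12, the aspartate/glutamate carrier, was lower on days 1, 7, 14 and 56 (-1.42, -1.51, -1.90 and -1.81), as was the import receptor Tomm70 (-1.45, -1.19, -1.18 and -1.25), and the prohibitin Phb2 was higher on days 1, 3, 7 and 14 (1.17, 1.30, 0.67 and 0.41). The ADP/ATP carriers differed. Slc25a4 was lower on days 1, 7, 14 and 56 (-0.52, -0.44, -0.66 and -0.51), and Slc25a5 was higher on days 1, 3 and 7 (0.58, 0.64 and 0.40). Ucp2, an uncoupling protein relative, was higher on every day (3.35, 1.121, 2.85, 1.97 and 2.00), and its relatives Slc25a27 and Slc25a14 were lower on day 1 by -2.91 and -2.17. Of 12 genes of pyruvate entry, 2 were higher and 4 lower on each of days 1, 3 and 7, none and 4 on day 14 and 1 and 4 on day 56. The kinases Pdk3 and Pdk1, which inhibit pyruvate dehydrogenase, were higher on days 1 (2.10 and 1.14) and 7 (1.00 and 0.88). The kinase Pdk2, brighter in sham (mean 10.17), went the other way on days 1 (-0.77, adjusted p = 0.00751) and 3 (-0.74, adjusted p = 0.0135). Pdk4 was called on no day. Pdp1, which reactivates the enzyme, was 1.34 higher on day 3 and lower on days 7, 14 and 56 (-0.46, -0.65 and -0.40). Of 19 regulators of mitochondrial biogenesis, 9 were higher and 3 lower on day 1, 9 and 3 on day 3, 8 and 4 on day 7, 3 and 3 on day 14 and 4 and 4 on day 56. Of all genes, 28.9%, 23.7%, 23.5%, 15.8% and 16.1% were higher on the 5 days. The shares lower were 20.4%, 16.7%, 30%, 16.3% and 15.9%. The day 7 counts of pyruvate entry were thus near or under the shares over all genes. Ppargc1a, the coactivator PGC-1 alpha, was lower on every day (-5.55, -2.80, -4.30, -3.67 and -2.93, adjusted p at most 0.000101, with a day 1 mean of 3.04, close to the control level), as was Esrrg, a nuclear receptor that works with it (-4.55, -2.24, -3.46, -2.90 and -2.52). Tfam, which packages and transcribes mitochondrial DNA, was higher on days 1, 3 and 7 (0.55, 1.00 and 0.34). Nrf1, whose motif was searched above, was higher on days 1, 3 and 7 (1.64, 1.23 and 1.38) from a dim sham mean of 3.5, and the fits for days 14 and 56 did not call it (adjusted p = 0.0725 and 0.119). For the ETS and YY1 motifs, Gabpa and Yy1 had sham means of 8.90 and 10.98. Gabpa was higher on days 1, 7, 14 and 56 (0.475, 0.70, 0.66 and 0.51), near the threshold on days 1 and 56 (adjusted p = 0.0416 and 0.0434). Yy1 was higher on the same days (0.50, 0.55, 0.35 and 0.41). Neither was called on day 3, and Gabpb1 was higher on days 1, 3 and 7 (0.72, 0.81 and 0.645).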

How the data were processed

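Total RNA from single rats was hybridised to 24 arrays. The authors pre-processed the scans with affy 1.12.2 and GCRMA (tools as in the submitters' processing notes), by the methods separately for each time point. The deposited values are log2 expression per probe set, used here without further normalization. An offset between such runs cannot be told apart from time after the clip. Quantile normalization and median centring of the deposited values do not redo that step. The methods give 5 µg of starting RNA and the labels 0.5 µg. No source used here gives array dates or batches, and each sample is a different rat.

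Gene symbols came from the platform annotation of 2016. Of 31099 probe sets, 57 are controls, 20832 carry 1 symbol, 436 several and 9831 none. For a gene with several, the probe set of highest average signal was used. All probe sets were fitted in 6 groups with limma 3.58.1 in R 4.3.3 (lmFit, contrasts, eBayes without trend, 18 residual and 1.08 prior degrees of freedom), and in each comparison the p-values of single-symbol probe sets were adjusted together (Benjamini-Hochberg, called under 0.05). An SE is that of the fitted difference, from limma's moderated variance. Lists are described by counts and medians. Python 3.11.15, numpy 2.4.6, pandas 2.3.3 and matplotlib 3.10.9 were used for the summaries.

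The members and all lists were chosen with earlier results of these data known. Genes were named per complex and day as the 2 largest called falls and rises, with every complex II subunit, the tissue isoforms and up to 3 genes per further list. Ndufab1, Uqcrfs1, Atpaf1, Slc25a4, Slc25a5, Tfam, Gabpa, Gabpb1 and Yy1 were added after their values were seen. Alternatives were a fit of the compared groups alone, trend and robust moderation with statmod 1.5.0, a 2-group t-test with pooled variance, quantile normalization and median centring. Others were leaving out dim probe sets (under 5 in both groups), averaging the probe sets of a gene, the replicate number as a block and each array left out. The set of members with a mean of at least 10, and 3 arrays left out together (day 7 replicates 2 and 3 and day 14 replicate 3), were added after the values were seen.

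Signal over background stands in for depth on arrays, and 4 arrays per group limit the precision. Within groups, arrays correlated at 0.973 to 0.996. On simulated data for day 1 against sham, over 14218 genes, 32% of 100 genes changed by 0.5 and 65% of 100 changed by 1 were recovered, with 3 false calls. The changed genes were drawn at random from all genes, and all others were left unchanged. These shares therefore do not give the recovery for the members, which are mostly bright. Changes under 0.5 that were not called may still have been missed.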

Additional observations from a re-analysis of the deposited data

Results flagged for a closer look

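In groups of 4 arrays, 1 array stood apart when its gap to the nearest other, divided by the range of the group, passed Dixon's critical value. This happened in 15 of 276 groups of named genes and 2 of 42 groups of complex medians, and chance gives about 1 in 20. The complex medians were those of complex III (0.908) and complex V (0.976) on day 7.

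In sham the arrays apart were replicate 1 for Atp5if1 (0.897) and replicate 2 for Cox7a1 (0.848). On day 1 they were replicate 3 for Atp5me (0.87), replicate 4 for Cox6a2 (0.832) and replicate 2 for Ndufa4l2 (0.838), on day 3 replicate 3 for Ndufaf8 (0.983), and on day 7 replicate 2 for Atp5f1d (0.851) and Sdhaf1 (0.868). On day 14 they were replicate 3 for Cox6a2 (0.841) and Sdhaf3 (0.904) and replicate 4 for Cox7a1 (0.947). On day 56 they were replicate 1 for Ndufb11 (0.842) and Sdha (0.867) and replicate 4 for Atp5pf (0.851) and Ndufaf4 (0.884).

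Cox7a2l differed between days in direction, being lower than sham on day 3 and higher on day 7, with a tested difference of 0.54 between these days.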

How the results depend on the processing

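The lower counts on days 14 and 56 stayed within 50 to 63 and 43 to 57 under all alternatives that kept every array. With 1 array left out in turn, members higher and lower numbered 14 to 28 and 22 to 30 on day 1, 6 to 13 and 12 to 19 on day 3, 4 to 6 and 27 to 38 on day 7, 0 to 0 and 52 to 63 on day 14, and 0 to 0 and 42 to 51 on day 56. From day 1 to day 3 they were 9 to 19 and 8 to 20, from day 3 to day 7 2 to 6 and 18 to 25, and from day 7 to day 56 0 to 0 and 0 to 13. The medians were -0.01 to 0.06, -0.06 to -0.01, -0.18 to -0.11, -0.44 to -0.34 and -0.33 to -0.25 on the 5 days, and -0.05 to 0.02, -0.16 to -0.09 and -0.20 to -0.14 for the 3 later comparisons.

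Fits of the compared groups alone gave 14 higher on day 1, 2 higher on day 7, 1 higher on day 56, 6 lower from day 1 to day 3 and 2 lower from day 7 to day 56. The pooled-variance t-test after Benjamini-Hochberg gave 12, 6, 2 and 1 higher on days 1, 3, 7 and 56. It gave 6 higher and 5 lower from day 1 to day 3, and 2 higher and 16 lower from day 3 to day 7. From day 7 to day 56 it gave 0 lower. Unadjusted, it gave 3, 2 and 1 higher on days 7, 14 and 56, and 5 higher and 40 lower from day 7 to day 56. Median centring gave a day 3 median of 0.041, 8 higher and 21 lower on day 7 with a median of -0.053, and 32 lower from day 7 to day 56 with a median of -0.27. Quantile normalization gave 1 higher and 0 lower from day 7 to day 56, with a median of -0.11. Members with a mean of at least 10 gave 7 higher on day 3, 6 higher from day 1 to day 3 and 14 lower from day 3 to day 7. For day 56 against day 7, trend and robust moderation gave 5 lower, the filter on dim probe sets 19, the 3 arrays left out together 1, and the replicate block 6. The replicate numbers did not pair the rats: samples with the same number had a mean correlation of deviations of -0.04, against 0.01 for other pairs. The direction turned for Cox4i2 on day 7 (0.028) and Cox8b on day 7 (0.005) after median centring, for Cox8b after quantile normalization (0.001), and with the mean of probe sets for Ndufa7 on days 1 and 7 (-0.79 and -0.85) and Ndufa9 on days 1, 3 and 7 (-0.12, -0.12 and -0.28). Except where shown by fewer samples or genes, the cause was not tested.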
